A study of Mus musculus with 12 samples.

Results

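Voltage-gated sodium channel subunits were measured in the hippocampus of adult male mice that had been exposed to ethanol in utero and in control mice. The members were all probes of the signal table before normalisation whose annotated gene symbol was *Scn1a*, *Scn2a*, *Scn3a*, *Scn8a*, *Scn2b*, *Scn3b* or *Scn4b*. These were 20 of the 45281 probes on the array, for 7 genes out of 19057 with a named probe. The genes were chosen with earlier results of these arrays known, *Scn4b* among them for its difference between the groups. The comparison of ethanol-exposed and control mice is therefore given for the members as a description, with no test.

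All 12 animals were C57BL/6J males aged 12 weeks, with 6 in each group and 1 MouseWG-6 v2.0 BeadChip array each. The dams of the ethanol-exposed group had access to ethanol between 0.5 and 8.5 dpc, and control dams had water. The 12 arrays lay on 2 chips, each with 3 ethanol-exposed and 3 control mice. The labels do not give the litter of a mouse, so the errors and p-values measure the spread between these mice only and litters cannot be told apart from single animals.

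A voltage-gated sodium channel opens when the membrane is depolarised and lets sodium into the neuron, which starts and carries the action potential. A large alpha subunit, here encoded by *Scn1a*, *Scn2a*, *Scn3a* or *Scn8a*, forms the pore and holds the voltage sensors. Smaller beta subunits, here encoded by *Scn2b*, *Scn3b* and *Scn4b*, span the membrane a single time, change channel gating and delivery to the surface, and act as cell adhesion molecules. In the hippocampus the channels are concentrated at the axon initial segment, where action potentials begin.

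The *Scn4b* and *Scn2b* genes are neighbours on chromosome 9 and are read in the same direction. The 250 bases before the annotated start of each are shown because the study concerns DNA methylation and the members' widest difference and their only separation of the groups were seen at probes of these genes. The sequences are from RefSeq, build GRCm38.p6, forward strand, and the capitals mark CG, the dinucleotide at which cytosine is methylated. The *Scn4b* bases lie at chr9:45138374-45138623 and the *Scn2b* bases at chr9:45117626-45117875.
Scn4b: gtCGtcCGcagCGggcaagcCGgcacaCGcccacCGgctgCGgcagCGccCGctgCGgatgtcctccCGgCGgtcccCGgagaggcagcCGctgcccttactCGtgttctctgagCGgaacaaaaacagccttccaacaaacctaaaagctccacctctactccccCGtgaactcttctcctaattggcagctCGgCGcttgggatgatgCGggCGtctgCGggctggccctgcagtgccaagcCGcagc
Scn2b: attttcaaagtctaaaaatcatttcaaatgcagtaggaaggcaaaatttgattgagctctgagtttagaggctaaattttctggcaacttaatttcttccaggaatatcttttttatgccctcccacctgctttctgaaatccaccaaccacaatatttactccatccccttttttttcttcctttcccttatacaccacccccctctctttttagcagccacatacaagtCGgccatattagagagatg
The *Scn4b* stretch held 23 CG dinucleotides, and 13.3% of 32851 mouse promoters of the same length held at least as many. The *Scn2b* stretch held 1, and 18.8% of those promoters held at most 1. The median promoter held 6. Among the other genes, *Scn1a* had 4, the annotated starts of *Scn2a* had 2 and 9, and those of *Scn8a* had 30 and 9. No methylation was measured on these arrays, so the CG counts describe the sequence alone.

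On a BeadChip the signal of a probe is averaged over many beads. Signals were background corrected, quantile normalised and put on the log2 scale, on which a difference of 1 is a doubling. A probe counted as detected on an array where its detection p-value, which sets its signal against that of negative control beads, was below 0.05. Probes detected on at least 6 of 12 arrays were kept, which left 19288 probes. Between 18644 and 20268 probes were detected per array, and the median signal before normalisation was 94.7 to 127.5. Of the hippocampal neuron markers *Prox1*, *Wfs1*, *Fibcd1*, *Neurod6*, *Camk2a* and *Slc17a7*, 6 of 6 passed this filter.

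Of the 20 sodium channel probes, 16 passed the filter and every one of the 7 genes kept at least 1 probe. The other 4 were *Scn2a* ILMN_1231178, *Scn3a* ILMN_2715720 and *Scn3b* ILMN_1255633, each detected on 0 arrays, and *Scn3a* ILMN_1231903, detected on 1 control array. Of the 16 probes, 15 were detected on 12 arrays, and the remaining *Scn4b* probe ILMN_1242172 was detected on 11. Signals of different probes depend on the probe as well as the transcript, so no gene's level was set against another's.

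Among the 16 probes, 13 had a higher mean in the ethanol-exposed group and 3 had a lower mean. The median log2 fold change was 0.14, whereas over all probes kept it was 0.0047 and 51.6% were positive. The differences were small except for *Scn4b* ILMN_2813547. The other probes ranged from -0.16 to 0.31. Over all probes kept, 3.36% were higher and 3.08% lower at an unadjusted limma p below 0.05. After Benjamini-Hochberg adjustment, 0 of 19288 probes had a limma p below 0.05, against 1242 before adjustment.

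**Figure D1:**
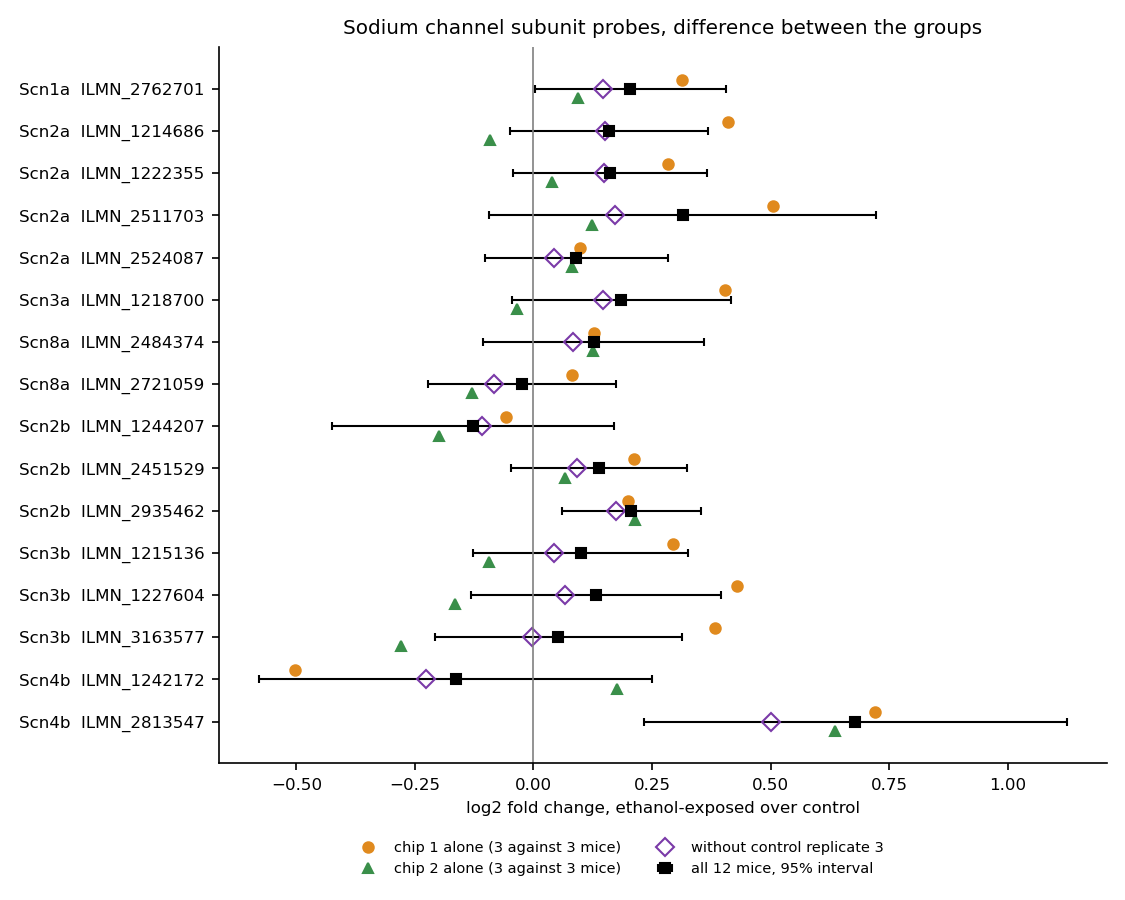
Log2 fold change (ethanol-exposed over control) on the horizontal axis for the 16 sodium channel probes; squares with bars are all 12 mice with the 95% interval, circles chip 1 alone, triangles chip 2 alone, and open diamonds the fit without control replicate 3. *Scn4b* ILMN_2813547 lies farthest to the right at 0.68, and the 3 *Scn3b* probes are above 0 on chip 1 and below 0 on chip 2.

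*Scn4b* encodes a beta subunit that is joined to the alpha subunit by a disulphide bond and whose intracellular tail is known for its part in resurgent sodium current. Its brighter probe, ILMN_2813547, had log2 signals from 8.19 to 8.71 (median 8.47) in the ethanol-exposed group and from 6.92 to 8.50 (median 7.84) among controls. All 6 ethanol-exposed animals exceeded the control median and 2 lay above the highest control, so the groups overlapped. The means were 8.49 ± 0.19 (SD, n = 6) and 7.81 ± 0.56 (SD, n = 6). The log2 fold change was 0.68 (SE 0.21, 95% interval 0.23 to 1.12), a fold of 1.60.

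The difference in *Scn4b* ILMN_2813547 was positive on both chips, but the interval on chip 1 included 0. It was 0.72 (95% interval -0.15 to 1.59) on chip 1 and 0.64 (95% interval 0.33 to 0.94) on chip 2. On chip 1 the controls had 8.24, 8.50 and 6.92 and the ethanol-exposed mice 8.43, 8.68 and 8.71. On chip 2 the controls had 7.84, 7.85 and 7.51 and the ethanol-exposed mice 8.50, 8.19 and 8.42. The groups were thus apart on chip 2 and overlapped on chip 1, where the low mean of the controls came from control replicate 3 at 6.92. Without that mouse the control mean was 7.99 ± 0.39 (SD, n = 5) and the log2 fold change was 0.50 (SE 0.16, 95% interval 0.16 to 0.84), a fold of 1.41. Without background correction, and on the authors' normalised values, it was 0.51 with all 12 mice. The residual spread of this probe was wider than that of 97.1% of all probes kept.

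The second *Scn4b* probe, ILMN_1242172, did not show this difference, although it is annotated to the same transcript. Its log2 signals ran from 5.22 to 6.45 (median 6.09) in the ethanol-exposed group and from 5.84 to 6.56 (median 6.11) among controls, and the groups overlapped widely. The log2 fold change was -0.16 (SE 0.19, 95% interval -0.58 to 0.25), with -0.50 on chip 1 and 0.18 on chip 2. It was dim, with signals before normalisation of 121.1 to 207.6 against 210.5 to 483.5 for ILMN_2813547. Across the 12 mice, after removing group means, the 2 probes had a Pearson's r of 0.0024 and a Spearman's rho of -0.20.

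*Scn2b* encodes another beta subunit that is linked to the pore by a disulphide bond. Its probe ILMN_2935462 had log2 signals from 11.26 to 11.49 (median 11.33) in the ethanol-exposed group and from 10.98 to 11.23 (median 11.17) among controls. The groups did not overlap, which was the case for 1 of the 16 sodium channel probes and, in the higher direction, for 0.124% of all probes kept, and nothing is read from this count because the genes were chosen with the contrast known. The log2 fold change was 0.21 (SE 0.069, 95% interval 0.060 to 0.35), with 0.20 on chip 1 and 0.21 on chip 2. The mice of a group lay close together, and the residual spread was wider than that of only 2.9% of all probes. Without control replicate 3, the lowest mouse, the log2 fold change was 0.17 (95% interval 0.027 to 0.32).

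The other *Scn2b* probes gave smaller or opposite values. The brightest, ILMN_2451529, had 12.35 to 12.63 (median 12.43) in the ethanol-exposed group and 12.08 to 12.55 (median 12.31) among controls. The groups overlapped, with a log2 fold change of 0.14 (SE 0.087). The dim probe ILMN_1244207 had a log2 fold change of -0.13 (SE 0.14), and the ethanol-exposed mice were spread from 6.26 to 7.18 where the controls lay between 6.79 and 7.04. It ran against ILMN_2935462 across mice, with an r of -0.58 and a rho of -0.59 of deviations from group means, whereas the brighter probes had an r of 0.36 and a rho of 0.20.

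*Scn3b* encodes a beta subunit that binds the pore without a disulphide bond. Its 3 detected probes, ILMN_1215136, ILMN_1227604 and ILMN_3163577, are annotated to the same transcript and tracked each other closely across mice (r 0.84 to 0.93, rho 0.57 to 0.87). ILMN_1215136 had 10.03 to 10.53 (median 10.48) in the ethanol-exposed group and 10.02 to 10.48 (median 10.36) among controls. The groups overlapped at all 3 probes, with log2 fold changes of 0.10 (SE 0.11), 0.13 (SE 0.12) and 0.052 (SE 0.12). The sign depended on the chip at each of them. On chip 1 the log2 fold changes were 0.29, 0.43 and 0.38, and on chip 2 they were -0.094, -0.17 and -0.28. At ILMN_3163577 the value was also -0.0027 without control replicate 3, -0.013 without control replicate 1 and -0.0054 under median scaling.

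**Figure D2:**
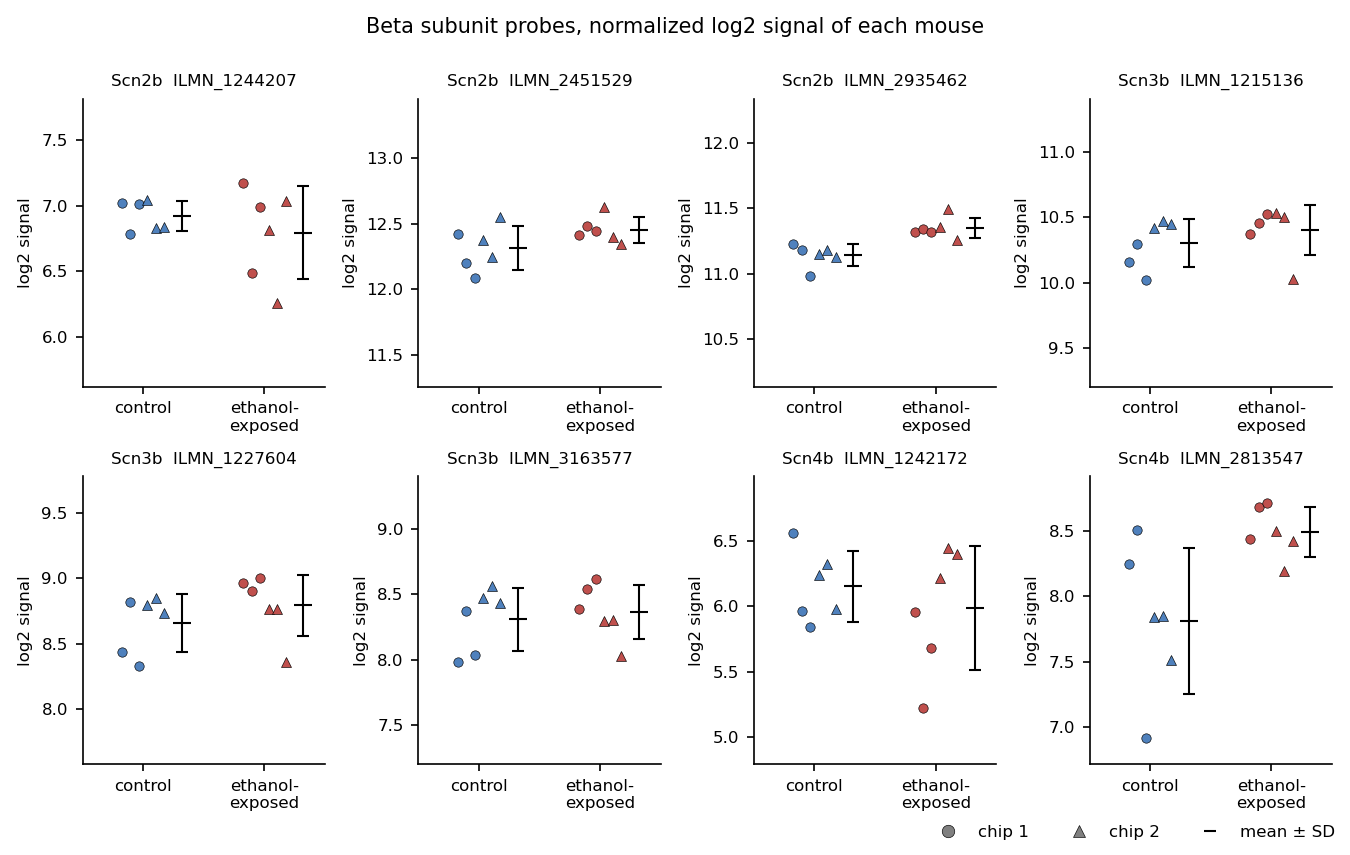
Normalised log2 signal (vertical axis) of each mouse for the 8 detected probes of *Scn2b*, *Scn3b* and *Scn4b*, with controls in blue, ethanol-exposed mice in red, chip 1 as circles, chip 2 as triangles and the mean ± SD (n = 6) beside each group; every panel spans the same number of log2 units. The groups are apart at *Scn2b* ILMN_2935462, and control replicate 3 lies lowest at *Scn4b* ILMN_2813547 with 6.92.

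*Scn1a* encodes a pore-forming subunit best known from fast-spiking inhibitory interneurons, and its loss of function causes severe epilepsy in children. Its single probe, ILMN_2762701, had 10.00 to 10.38 (median 10.10) in the ethanol-exposed group and 9.66 to 10.11 (median 9.93) among controls. All 6 ethanol-exposed animals exceeded the control median and 3 above the highest control. The log2 fold change was 0.20 (SE 0.094, 95% interval 0.0026 to 0.40), with 0.31 on chip 1 and 0.093 on chip 2. Without control replicate 3 it was 0.15 (95% interval -0.043 to 0.34).

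*Scn2a* encodes the pore-forming subunit found along axons and at the initial segment of excitatory neurons. ILMN_1214686, its brightest probe, had 10.22 to 10.62 (median 10.48) in the ethanol-exposed group and 9.99 to 10.47 (median 10.33) among controls. The log2 fold change was 0.16 (SE 0.098), made up of 0.41 on chip 1 and -0.091 on chip 2. ILMN_1222355 had 0.16 (SE 0.096), with 0.28 and 0.039 on the chips. ILMN_2524087 had 0.090 (SE 0.090), with 0.099 and 0.082. The groups overlapped at each of these probes. The largest *Scn2a* value, 0.31 (SE 0.19), came from the dim probe ILMN_2511703, whose signals before normalisation were 130.2 to 182.8. It fell to 0.17 without control replicate 3 and to 0.14 without background correction.

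*Scn3a*, a pore-forming subunit mostly expressed before birth and early in life, and *Scn8a*, the subunit of mature initial segments and nodes of Ranvier, completed the set. *Scn3a* ILMN_1218700 had 8.74 to 9.23 (median 8.91) in the ethanol-exposed group and 8.54 to 9.12 (median 8.69) among controls, overlapping groups with a log2 fold change of 0.19 (SE 0.11), 0.40 on chip 1 and -0.034 on chip 2. *Scn8a* ILMN_2484374 had 8.10 to 8.55 (median 8.21) in the ethanol-exposed group and 7.91 to 8.36 (median 8.12) among controls, with a log2 fold change of 0.13 (SE 0.11). The other *Scn8a* probe, ILMN_2721059, had -0.024 (SE 0.093, 95% interval -0.22 to 0.18), and the ethanol-exposed values, 8.17 to 8.52, lay inside the control range of 8.11 to 8.57. The 2 *Scn8a* probes therefore differed in sign, and across mice they had an r of 0.38 and a rho of 0.39.

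**Figure D3:**
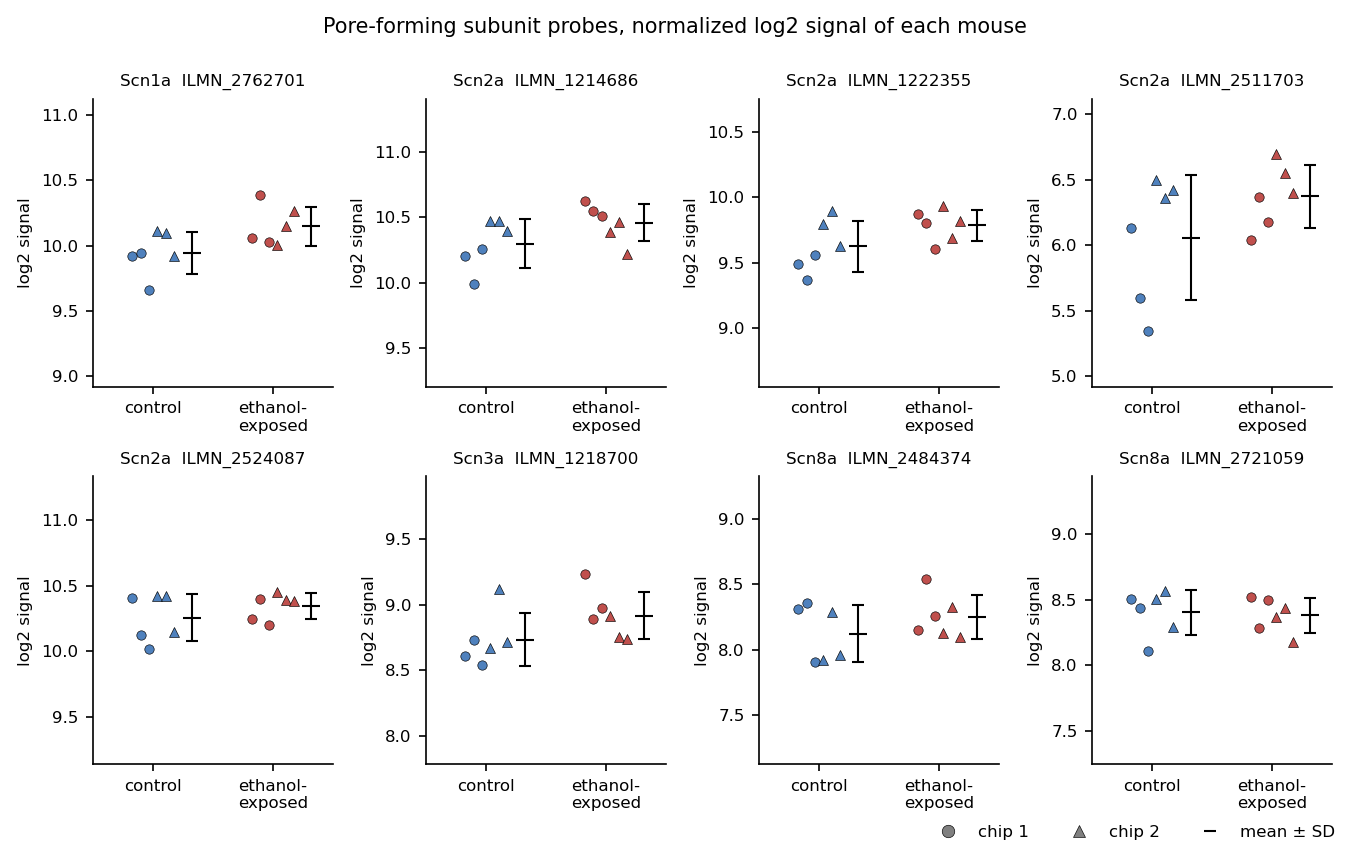
Normalised log2 signal (vertical axis) of each mouse for the 8 detected probes of *Scn1a*, *Scn2a*, *Scn3a* and *Scn8a*, with controls in blue, ethanol-exposed mice in red, chip 1 as circles, chip 2 as triangles and the mean ± SD (n = 6) beside each group; every panel spans the same number of log2 units. The groups overlap in all 8 panels.

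The chips differed in how far the groups stood apart. On chip 1 alone, 14 of the 16 probes were higher in the ethanol-exposed group and the median log2 fold change was 0.29, whereas on chip 2 alone 9 were higher and the median was 0.052. Over all probes the medians were 0.013 and 0.00094. The difference between the chips was not tested, since the members were chosen on the same contrast. The 4 choroid plexus markers kept, of 7 listed, had a median log2 fold change of -2.56 on chip 1 and 0.30 on chip 2, and the 4 ependymal cell markers kept, of 5 listed, had -1.33 and 0.023. Their part in the difference between the chips was not tested. Under median scaling, which shifted the median of all probes to -0.041, the members' median was 0.093 and 12 of 16 were positive. The share of calls over all probes moved with this choice, from 648 higher and 594 lower at an unadjusted p below 0.05 to 147 higher and 637 lower.

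Control replicate 3 had the lowest signal of the 12 mice at 11 of the 16 sodium channel probes, or 68.8%, against 11.8% of all probes kept. These 11 probes covered the 7 genes. Nothing is read from this count, because the genes were chosen with the contrast known and a low control is part of that contrast. Probes of the same gene are also not independent. Without this mouse, 12 of the 16 probes remained higher in the ethanol-exposed group and the median log2 fold change was 0.088, against 0.0013 over all probes. On this array 18896 probes were detected, against a median of 19302.5 over the 12 arrays. That lay inside the range of the arrays of chip 1, 18644 to 19113. The part of detection in its values was not tested. The summed signal of the 4 detected ependymal cell markers was 1477 in this mouse against 323 to 1477 over all controls (median 560) and 269 to 484 in ethanol-exposed mice (median 425), so that it was the highest. That of the 4 detected choroid plexus markers was 37185, against 704 to 42575 in controls (median 5773) and 480 to 26692 in ethanol-exposed mice (median 1753). Its summed hippocampal neuron markers, 22383, were the lowest of the controls, which reached 30791 (median 28269), and lay below the ethanol-exposed mice at 23368 to 29007 (median 26057). The part of these cell types in the sodium channel values was not tested. In RNA of whole tissue, fewer cells of a type and less RNA per cell cannot be told apart.

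**Figure D4:**
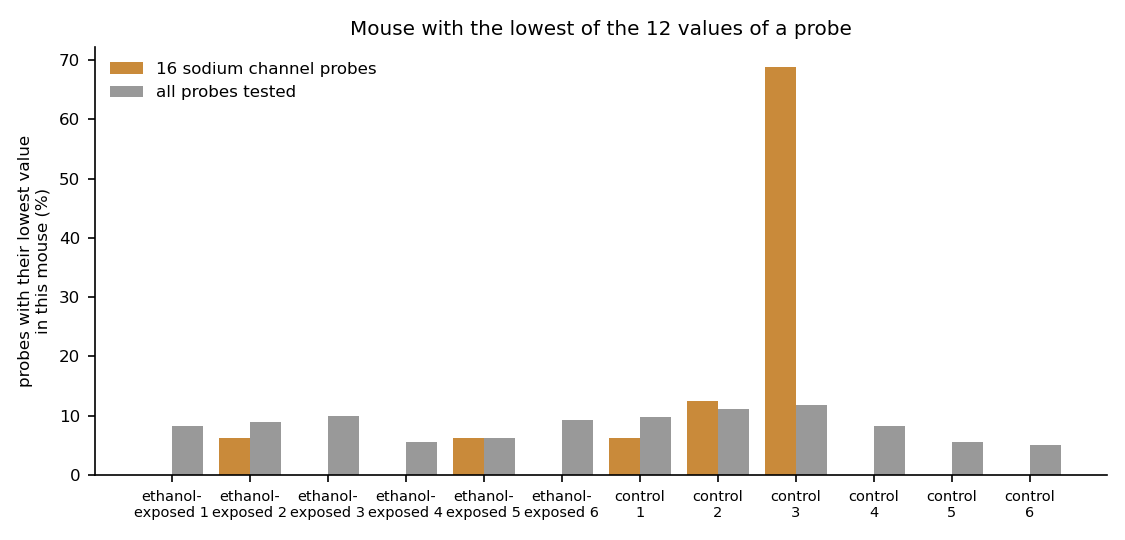
Share of probes (vertical axis, percent) that had their lowest value of the 12 in each mouse, for the 16 sodium channel probes in orange and all 19288 probes kept in grey. Control replicate 3 reaches 68.8% of the sodium channel probes and 11.8% of all probes. The sodium channel genes were chosen with the contrast between the groups known, so nothing is read from these shares.

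Markers of neighbouring regions and of interneurons were set beside these values, because *Scn4b* and *Scn1a* are not evenly expressed across the brain. The 5 striatal markers kept had a median log2 fold change of 0.11, and *Adora2a* was detected on 0 arrays. The summed striatal signal was 1613 to 1927 (median 1816) in the ethanol-exposed group and 1518 to 2181 (median 1713) among controls, and the sums that follow are given in that order. Of 6 thalamic and habenular markers 4 were kept, with *Lef1* and *Gbx2* on 0 arrays and a median of 0.13. The highest was *Tac2* at 0.49 (SE 0.15), the 1 marker of this list with an unadjusted limma p below 0.05 (adjusted p = 0.717). Their sum was 582 to 672 (median 645) and 510 to 674 (median 584). The 4 subicular markers *Fn1*, *Nts*, *Cntn6* and *Ly6g6e* were kept and had values of 0.040, 0.40, 0.34 and 0.43, of which 3 had an unadjusted limma p below 0.05 and 0 an adjusted one. Their sum was 547 to 807 (median 612) and 377 to 596 (median 531). The 5 interneuron markers had a median of 0.12 and a sum of 19591 to 24775 (median 21117) and 19211 to 22482 (median 20286). Glial markers were lower in the mean in ethanol-exposed mice. The 3 astrocyte markers had a median of -0.23 and a sum of 4376 to 4922 (median 4712) and 4866 to 5796 (median 5523). The 3 oligodendrocyte markers kept had a median of -0.19 and a sum of 30007 to 33997 (median 32135) and 30434 to 39028 (median 35413). After adjustment 0 of these markers passed, and 1 astrocyte and 1 oligodendrocyte marker had an unadjusted limma p below 0.05. Over all probes kept, 6.44% had such a p in either direction. The marker lists were written with earlier results of these arrays known, so nothing is read from these counts. The part of these regions and cells in the sodium channel values was not tested.

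The chip itself was not used to choose the members, so chip 2 was compared with chip 1 by limma with group as a covariate. Of the 16 probes, 11 were higher on chip 2, against 9571 of the 19288 probes kept. At an adjusted p below 0.05, 0 of the 16 passed, against 0.446% of all probes. At an unadjusted p below 0.05, 2 passed, against 15.1% of all probes. These were the dim probes *Scn2a* ILMN_2511703 (log2 difference 0.55, SE 0.13, limma adjusted p = 0.084) and *Scn4b* ILMN_1242172 (0.39, SE 0.17, limma adjusted p = 0.287). The result depended on the scaling. Under median scaling the median log2 difference between the chips over all probes was 0.20, against -0.0013. With this scaling 17513 of the 19288 probes kept were higher on chip 2, as were 16 of the 16 sodium channel probes. Of the 16 sodium channel probes, 4 passed the adjusted threshold, against 19.8% of all probes. They were *Scn2a* ILMN_1222355, ILMN_2511703 and ILMN_2524087 and *Scn4b* ILMN_1242172.

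Whether *Scn4b* varied with the other subunits from mouse to mouse was examined with the deviations from group means, which leave out the difference between the groups. For each gene the probe with the highest mean signal was used, and 6 relations were computed over 12 mice. The strongest was with *Scn8a*, at a Pearson's r of 0.57 (permutation p = 0.052, adjusted p = 0.311) and a Spearman's rho of 0.48 (permutation p = 0.115, adjusted p = 0.345). *Scn1a* gave an r of 0.42 (permutation p = 0.174, adjusted p = 0.462) and a rho of 0.21 (permutation p = 0.511, adjusted p = 0.751). The other r values lay between -0.29 for *Scn2a* and 0.24 for *Scn3b*, with permutation p values from 0.365 to 0.462 and rho values from -0.15 to 0.48. None of the 6 relations passed the threshold after adjustment. Without control replicates 3 and 6, the *Scn8a* value was -0.22 and the *Scn1a* value -0.28, so the sign of both changed. These mice lay farthest from the median of the *Scn4b* signals, not of the deviations, and no other pair was left out. Within chip 1 (n = 6) *Scn8a* had an r of 0.75 and *Scn1a* 0.66, and within chip 2 (n = 6) they had 0.32 and 0.31. The largest r within a chip was that of *Scn3b* on chip 1, at 0.89 (n = 6), against -0.14 on chip 2. The rho values were 0.83 and 0.37. On chip 1 this r had a permutation p of 0.0153 (adjusted p = 0.0917). That p came from shuffling all 6 mice across the groups after group means were removed, so it can be too small.

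The probes whose deviations were most like those of *Scn4b* ILMN_2813547 belonged to *A930004D18Rik* (r 0.96), *Dusp3* (0.92), *Vars* (0.91), *Ip6k2* (0.89) and *Fam174c* (0.89), each over 12 mice. *Dusp3* encodes a phosphatase, *Vars* a valyl-tRNA synthetase and *Ip6k2* an inositol phosphate kinase. In all, 81 of 19288 probes had an r above 0.8. At each of the 5 probes control replicate 3 was below the other controls, and without it the r values were 0.75 to 0.91. Their log2 fold changes between the groups, which this measure leaves out, lay from -0.045 to 0.10.

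Genes that act with the channels were listed from general knowledge. They are not members, but the lists, too, were written with earlier results of these arrays known. Of 49 listed genes, 38 had a probe named here and 31 passed the filter, with 53 probes. Of these probes, 38 were higher in the ethanol-exposed group and 15 lower, with a median log2 fold change of 0.062. Over all probes kept, 51.6% were positive and the median was 0.0047. At an unadjusted limma p below 0.05, 2 of the 53 probes were higher and 0 lower, against 6.44% of all probes in either direction. After adjustment 0 of the 53 passed. Of the 7 remaining channel subunits, *Scn7a*, *Scn10a* and *Scn11a* had probes detected on at most 1, 2 and 0 arrays and were not tested.

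The 7 listed proteins of the axon initial segment and nodes were all measured, with 10 of 13 probes positive and a median of 0.089. *Ank3* encodes ankyrin-G, the scaffold that anchors sodium channels at the initial segment. Its probe ILMN_2484322 had 12.18 to 12.56 (median 12.39) in the ethanol-exposed group and 12.04 to 12.33 (median 12.16) among controls. The groups overlapped, and the log2 fold change was 0.20 (SE 0.085, limma adjusted p = 0.753), with 6 of 6 ethanol-exposed mice above the control median. Of the other *Ank3* probes, ILMN_1227817 had 0.23 and the dim ILMN_2622306 and ILMN_1223963 had 0.13 and 0.10. Without background correction these dim probes had 0.052 and 0.047. On chip 1 ILMN_2484322 had 0.31 and on chip 2 0.096. *Nfasc*, for the adhesion molecule neurofascin, had -0.17 (SE 0.11) at ILMN_2620223 and values from -0.0054 to 0.15 at its other 3 probes.

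Among RNA regulators, *Rbfox2*, a splicing factor of neurons, had 7.73 to 8.34 (median 7.90) in the ethanol-exposed group and 7.57 to 7.84 (median 7.76) among controls at ILMN_2670527. The log2 fold change was 0.23 (SE 0.11, limma adjusted p = 0.759), with 5 of 6 ethanol-exposed mice above the control median. The other *Rbfox2* probe had 0.043 (SE 0.086). The related *Rbfox1* had 0.29 (SE 0.15) at the dim probe ILMN_1240035, which was 0.12 without background correction. Its brighter probe, ILMN_1238309, had 0.075 (SE 0.088). The list had 6 of 7 probes positive and a median of 0.093.

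The remaining lists had 0 probes at an unadjusted limma p below 0.05. Of the intracellular binding proteins, 8 of 9 probes were positive with a median of 0.048. *Fgf12* had 0.19 (SE 0.16) at ILMN_1221164 and 0.13 (SE 0.15) at its brighter probe ILMN_1243357. *Fgf13* had -0.13 (SE 0.10) at ILMN_1257196, 0.048 (SE 0.13) at ILMN_2707356 and 0.026 (SE 0.10) at its brightest probe ILMN_2745480. Both genes encode fibroblast growth factor homologous factors, which bind the tail of the pore-forming subunit. Of the proteases that cut beta subunits, 4 of 8 probes were positive with a median of -0.041. *Ncstn*, for the gamma-secretase subunit nicastrin, had -0.35 (SE 0.17) at the dim probe ILMN_1212949, which was -0.15 without background correction. Its brighter probes had -0.083 (SE 0.087) and 0.0022 (SE 0.091). *Psen2*, for a presenilin, had 0.12 (SE 0.085).

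Of the enzymes that modify the channels, 8 of 14 probes were positive with a median of 0.027. *Csnk2a1*, for a catalytic subunit of casein kinase, had 0.15 (SE 0.083) at ILMN_1223808 and -0.20 (SE 0.11) at ILMN_1236941, so its probes went opposite ways. *Prkca*, for a protein kinase C, had 0.17 (SE 0.11) at ILMN_1256967. The sodium pump beta subunits *Atp1b1* and *Atp1b2*, which belong to the pump that restores the sodium gradient, had 0.085 (SE 0.073) and 0.10 (SE 0.091).

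**Figure D5:**
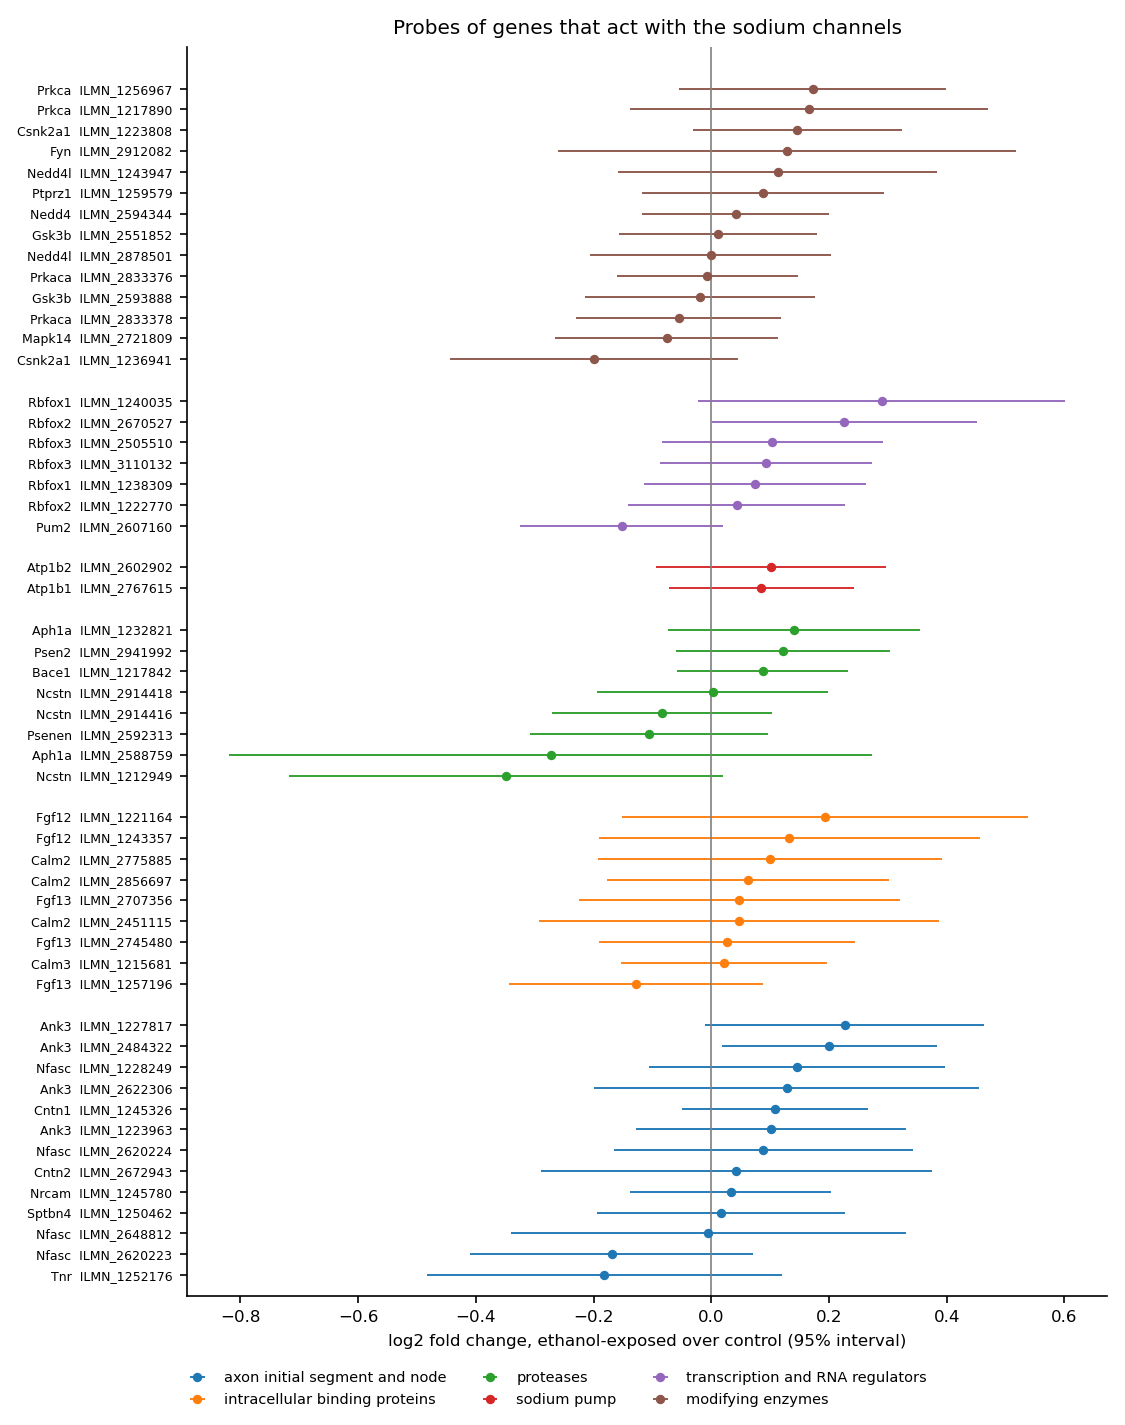
Log2 fold change (ethanol-exposed over control, horizontal axis) with its 95% interval for the 53 probes of genes that act with the sodium channels, coloured by list. Intervals of 2 probes, *Ank3* ILMN_2484322 at 0.20 and *Rbfox2* ILMN_2670527 at 0.23, lie above 0, and the other 51 include 0.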

How the data were processed

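The sodium channel genes and all lists were chosen with earlier results of these data known. Hippocampal RNA was extracted with an RNeasy kit, and the authors processed the arrays in GenomeStudio 1.9.0. Per the file headers, the signal table used here gives linear intensity without normalisation and, beside it, a deposited detection p-value. The authors' second table holds quantile normalised intensity, which lay within 0.956% of quantile normalisation of the first.

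Intensities were corrected with limma 3.58.1 (R 4.3.3) by normexp from the detection p-values (offset 16), quantile normalised and log2 transformed. Of 45281 probes, 34885 carried 1 gene symbol and 18 several. The groups were compared by limma on group alone, with empirical Bayes moderation and Benjamini-Hochberg adjustment over 19288 probes. Correlations used 100000 permutations, or all permutations of the mice within a chip, in scipy 1.17.1. The fit was tested on simulated data. Every member is described. From each list of partner genes the 2 genes with the smallest p were named, which took in the genes with an unadjusted p below 0.05. Promoters were matched by symbol, and entries were found for *Scn1a*, *Scn2a*, *Scn8a*, *Scn2b* and *Scn4b*. Alternatives were other background, scaling and filter settings, the chip or replicate as a block, each chip alone and leaving out each mouse. The number of arrays limits the precision.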

Additional observations from a re-analysis of the deposited data

Results flagged for a closer look

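In 3 of 32 groups of 6 mice checked, a single mouse stood far from the others, where the limit was a gap of 0.625 of the group's range. Chance gives such a gap in about 1 of 20 groups. At *Scn3a* ILMN_1218700 the highest control, replicate 5 at 9.12, lay above the others by 0.667 of the range. At *Scn3b* ILMN_1215136 the lowest ethanol-exposed mouse, replicate 6 at 10.03, lay below the others by 0.686 of the range. The same mouse, at 8.36, lay below the others by 0.627 of the range at *Scn3b* ILMN_1227604. Without ethanol-exposed replicate 6 the log2 fold changes of these *Scn3b* probes were 0.17 and 0.22, and without control replicate 5 that of *Scn3a* was 0.26.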

How the results depend on the processing

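The median log2 fold change of the sodium channel probes stayed positive in every alternative run, from 0.052 on chip 2 alone to 0.29 on chip 1 alone, against 0.14. The count of probes past an adjusted p of 0.05 was 0 in every alternative. The count past a fold of 1.5 with an unadjusted p of at most 0.05, 25 over all probes, was 5 without background correction and on the authors' normalised values, 12 with an offset of 50 or with detection on 12 arrays, 332 on chip 1 alone, 41 on chip 2 alone and 14 to 54 when single mice were left out (14 without ethanol-exposed replicate 2, 39 and 48 without 3 and 5, and 54 and 45 without control replicates 5 and 6). At an unadjusted p below 0.05 alone, 1242 probes became 784 under median scaling and 2477 without a filter. The 2 partner probes at an unadjusted p below 0.05 became 0 under median scaling, 4 without a filter, 5 on chip 1 alone, 1 on chip 2 alone, 1 without moderation and 0 to 5 when single mice were left out. That count was 0 without control replicate 3 or ethanol-exposed replicate 1 or 4, 1 without ethanol-exposed replicate 3 or control replicate 4, 5 or 6, 4 without ethanol-exposed replicate 5 and 5 without ethanol-exposed replicate 6. In the comparison of the chips, 4 sodium channel probes passed the adjusted threshold under median scaling, against 0, and 19.8% of all probes did, against 0.446%. Pearson's r with *Scn4b* turned negative without the 2 farthest mice for *Scn1a* (-0.28), *Scn3a* (-0.11), *Scn8a* (-0.22) and *Scn3b* (-0.18). Within chip 2 alone it turned negative for *Scn2b* (-0.24) and *Scn3b* (-0.14). Spearman's rho stayed positive for *Scn3a* without those mice (0.16) and within chip 2 for *Scn2b* (0.029) and *Scn3b* (0.37). Of the 5 probes most like *Scn4b*, 3 were shared without background correction. The cause was not tested in any of these cases.

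The replicate numbers were not taken to pair the mice, since not every pair but 3 of 6 same-numbered pairs had a correlation of deviations over 0.1. The correlations ran from -0.018 to 0.21, and 5 of 12 arrays correlated best with their own number. With the replicate block the median of the sodium channel probes was 0.14, the unadjusted count was 1384, the fold count was 31, the partner count was 1 and the adjusted count was 0.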
